A study of Caenorhabditis elegans with 2 samples.

Results

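A set of 10 genes of Caenorhabditis elegans that set sex and equalise X expression was examined for binding of ZTF-11, a zinc finger transcription factor and the worm homologue of vertebrate Myt1. These, of 19973 protein-coding genes on nuclear chromosomes, were chosen by name for their roles, with earlier results of these data known. They were xol-1, sdc-1, sdc-2 and sdc-3 at the top of the pathway, dpy-21, dpy-26, dpy-27, dpy-28 and dpy-30 in dosage compensation, and her-1 in sex determination. Of these, 3 (xol-1, sdc-1 and sdc-2) lie on X and 7 on autosomes. ChIP-seq of eGFP-tagged ZTF-11 was made in 2 biological replicates of a single group, with no second condition, so nothing could be compared between treatments or sexes. The animals were whole mixed-stage embryos of strain OP236, which carries the mutation unc-119(ed3) III and the insertion wgIs236 with the tagged ztf-11. Neither their sex nor a share of males among them is given in the labels. The labels name no promoter for the insertion and no ztf-11 mutation, and the control library they name was not analysed here.

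In C. elegans the ratio of X chromosomes to autosomes decides sex. X signal elements repress xol-1 and autosomal signal elements activate it, so that XOL-1 is made in XO embryos, where it blocks the SDC proteins and leads to male fate. In XX embryos the SDC proteins repress her-1, the gene of a secreted signal for male fate, and bring the dosage compensation complex, a relative of condensin, to both X chromosomes, where it lowers transcription. The complex enters X at recruitment elements that hold clustered copies of a short motif whose core is CGCAGGG.

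Binding was read from 4 peak lists of the authors: a thresholded list of 721 peaks that passed the authors' reproducibility filter, the relaxed pooled list of 12024 peaks from which it was drawn, and a relaxed list of 30000 peaks for each replicate. The signal is the authors' enrichment over a control on a scale that is not stated. It ran from 33.9 in the thresholded list and from 12.3 in the pooled list, with medians of 46.4 and 15.4. Rank 1 is the strongest peak of a list. A gene was searched from 6000 bp upstream of its outermost 5′ end to its 3′ end, and a peak was placed by its summit.

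Strong ZTF-11 peaks lay well upstream of xol-1, dpy-21 and dpy-28, and none of the 10 genes had a thresholded summit at its own promoter. The thresholded summits had signals of 183.9 upstream of dpy-28, 88.9 upstream of xol-1 and 62.8 upstream of dpy-21. Only for the xol-1 summit was the nearest 5′ end of a coding gene that of the member. The summit upstream of dpy-28 was nearest to tasp-1, and the one upstream of dpy-21 to Y59A8B.24. The other 7 genes had no thresholded summit, and their strongest pooled summits ran from 27.5 at dpy-27 down to no pooled summit at sdc-3 and dpy-30.

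The bases around these summits are given from RefSeq's WBcel235 assembly, which is the same sequence as the ce11 build of the peak lists. All are written 5′ to 3′ on the plus strand of the chromosome, with no base of an annotated UTR. Capitals mark GAGAG and CGCAGGG on either strand, which were compared between the windows. The windows of the thresholded peaks come first.
xol-1, chrX:8036293-8036492: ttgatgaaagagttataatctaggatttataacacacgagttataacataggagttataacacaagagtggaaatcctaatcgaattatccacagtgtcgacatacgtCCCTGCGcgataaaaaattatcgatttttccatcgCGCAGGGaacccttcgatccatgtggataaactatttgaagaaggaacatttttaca
dpy-21, chrV:17951377-17951576: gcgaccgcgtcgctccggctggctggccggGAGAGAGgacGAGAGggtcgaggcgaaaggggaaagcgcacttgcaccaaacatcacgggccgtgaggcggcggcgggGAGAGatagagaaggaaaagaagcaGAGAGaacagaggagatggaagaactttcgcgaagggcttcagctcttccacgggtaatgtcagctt
dpy-28, chrIII:10759141-10759306: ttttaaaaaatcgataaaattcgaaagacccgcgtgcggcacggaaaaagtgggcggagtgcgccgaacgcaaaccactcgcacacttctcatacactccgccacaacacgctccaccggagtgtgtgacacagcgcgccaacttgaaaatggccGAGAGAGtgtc
The windows of the strongest pooled summits upstream of 3 genes without a thresholded one follow.
sdc-1, chrX:16275322-16275521: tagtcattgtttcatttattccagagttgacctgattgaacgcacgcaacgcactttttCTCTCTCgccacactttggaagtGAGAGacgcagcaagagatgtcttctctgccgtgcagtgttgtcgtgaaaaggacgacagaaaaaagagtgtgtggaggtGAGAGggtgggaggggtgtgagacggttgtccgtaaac
sdc-2, chrX:11522161-11522360: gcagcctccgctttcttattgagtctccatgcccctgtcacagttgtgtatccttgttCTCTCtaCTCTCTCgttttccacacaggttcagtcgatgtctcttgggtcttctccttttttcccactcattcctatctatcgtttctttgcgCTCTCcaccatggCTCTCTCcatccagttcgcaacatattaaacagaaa
dpy-27, chrIII:3821970-3822169: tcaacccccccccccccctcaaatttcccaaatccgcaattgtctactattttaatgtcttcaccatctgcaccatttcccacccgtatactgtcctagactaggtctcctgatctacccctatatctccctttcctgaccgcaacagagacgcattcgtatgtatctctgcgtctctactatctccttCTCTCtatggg

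The xol-1 window held no GAGAG, which was found in the 7 other windows of 200 bp searched (not all of them shown), and its GC content was 36.5%, against 60.5% at dpy-21 and 54.0% at dpy-28. The dpy-26 window was lower still, at 28.5%. The median GC content was 48.0% over all 698 nuclear thresholded windows and 38.5% over the pooled ones. GAGAG occurred in 66.8% of the thresholded windows, 35.2% of the pooled windows and 29.6% of the 200 bp windows upstream of all coding genes. No 32-base word of any member's window occurred elsewhere in the nuclear genome.

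The xol-1 window was also the only member window with CGCAGGG, and it held it on both strands. The first match was centred 12 bp and the second 47 bp to the right of the summit. Both sat inside one and the same 12-base word, ATCGCGCAGGGA, which read on the minus strand at chrX:8036400-8036411 and on the plus strand at chrX:8036432-8036443, with 20 bp between the copies. That word was picked after the window had been read, so its counts are descriptions. It occurred 11 times in the nuclear genome, 10 times on X and 1 time on V. Of the 10 copies on X, 8 lay in thresholded ZTF-11 peaks, namely the 2 at xol-1 and 6 others in 6 further peaks. CGCAGGG itself was found in 3.44% of the thresholded windows, 0.767% of the pooled windows and 0.365% of the upstream windows. By chromosome it was in 13 of the 168 thresholded windows on X (7.74%) and in 11 of 530 on autosomes (2.08%), of which 6 were among the 116 on III (5.17%). In the pooled list the shares were 1.21% on X, 1.11% on III and 0.666% on all autosomes. In 4 of the windows on X and in 0 on autosomes it occurred more than once. Over whole chromosomes its density was much alike, at 17.0 matches per Mb on X and 16.1 on autosomes. A match of letters does not show that a protein sits there.

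Among the other motifs searched on both strands in the 8 windows, AAGTT, the core bound by Myt1 family proteins in vertebrates, was found in 3. The 3 were dpy-21, dpy-26 and dpy-28. AAGTT occurred in 22.1% of the thresholded, 46.4% of the pooled and 55.1% of the upstream windows. GATAA was found in 3 windows and TTTGAA and TTCGAA in 1 each, while CACGTG and TGACTCA were found in none. Their shares of the thresholded windows were 22.5%, 26.4%, 10.6%, 4.44% and 0.860% in that order. The 8 windows include pooled summits that were not thresholded, so the other shares matter for the motifs that were found. GATAA occurred in 34.4% of the pooled and 45.6% of the upstream windows. TTTGAA occurred in 40.5% and 49.9% of them, and TTCGAA in 11.5% and 12.4%. No rise over these shares is read from the counts in 8 windows.

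A total of 3 of the 10 genes had a thresholded summit in the gene window, against 6.53% of all protein-coding genes and 6.44% of the 16550 genes with windows of the members' range of length. The members' windows were long, with a median of 12717 bp against 8027 bp for all coding genes. Their range, 6867 to 19946 bp, took in most coding genes, so the 16550 were not matched to the members in length. By chromosome, 1 of the 3 X-linked members had one, where the share of all X-linked genes was 8.68%, as did 2 of the 7 autosomal members, where that share was 6.19%. A pooled summit was found at 8 of the 10, against 58.7% of all genes. In the promoter window, from 1000 bp upstream to 200 bp downstream of a 5′ end, 0 of the 10 had a thresholded summit (2.65% of all genes) and 6 had a pooled one (22.4% of all genes). These 6 were xol-1, sdc-1, sdc-2, dpy-21, dpy-27 and her-1. Summits of the pooled list lay at 1.49 per 10 kb in the members' windows and 1.2 per 10 kb in the nuclear genome. The density was 3.57 against 2.99 for replicate 1 and, in the other direction, 2.6 against 2.99 for replicate 2.

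**Figure D1:**
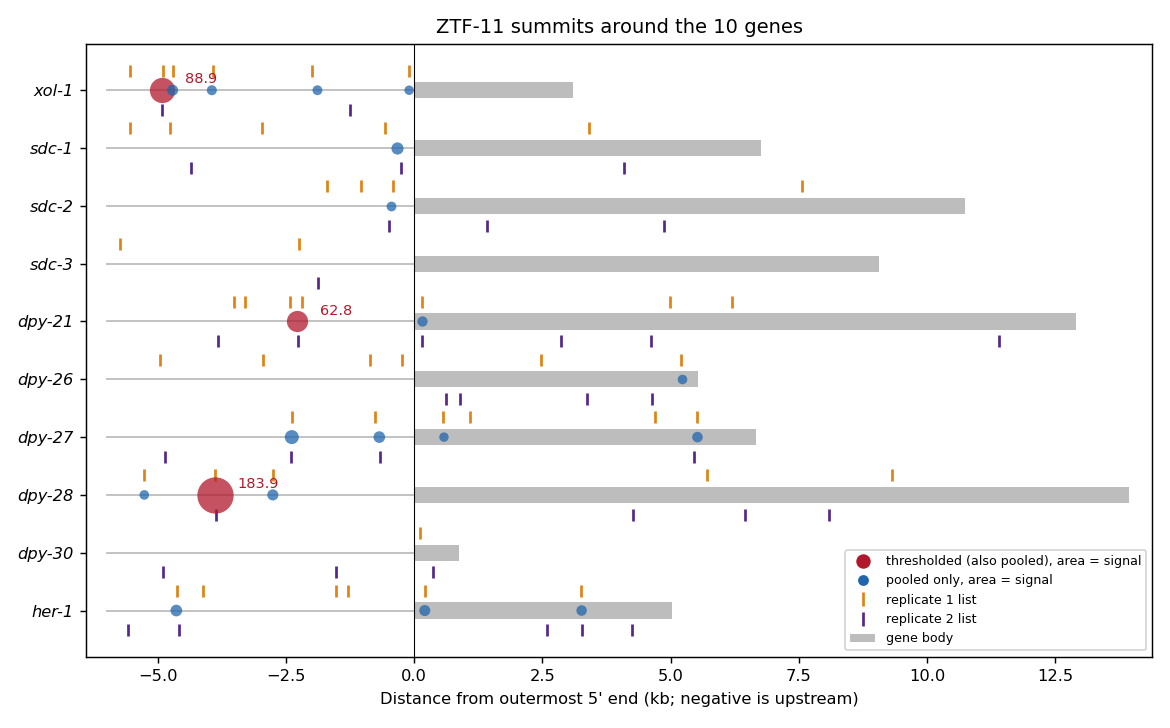
Each row is a gene drawn from its outermost 5′ end, with distance in kb on the horizontal axis, the searched upstream stretch as a thin line and the gene body as a grey bar. Circles are pooled summits with an area that follows the signal (red, also thresholded, with the signal printed), and ticks above and below are summits of replicates 1 and 2. The 3 red circles lie upstream, none of them next to the 5′ end of the gene in whose row it stands.

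The xol-1 gene encodes the switch protein that XO embryos make to become male. Its thresholded peak covered chrX:8036335-8036452, only 118 bp where the median peak was 356 bp wide, and its summit lay 4921 bp upstream of the gene. The signal was 88.9 in the pooled list (rank 76), 50.5 in replicate 1 (rank 69) and 38.3 in replicate 2 (rank 96). Both replicates thus placed it among their strongest peaks, with summits 12 and 3 bp from the pooled one, and it ranked 15 among the 168 thresholded peaks on X. The summit was intergenic and in no promoter window. Its nearest 5′ end of a coding gene was that of xol-1, and on the other side the gene C34D10.1 ended 4778 bp away. A tRNA gene lay 293 to 365 bp from the summit.

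The other 4 pooled summits between that peak and the gene were weak. They lay 4716, 3950, 1890 and 101 bp upstream, with signals of 17.2, 14.1, 13.6 and 12.6. The first was 77 bp from the non-coding gene C18A11.13 and overlapped the same strong replicate 2 peak as the thresholded one. The next 3 overlapped a replicate 1 peak (ranks 9947, 6503 and 7257) and no replicate 2 peak, so that a summit at the xol-1 promoter itself was listed from 1 of the 2 libraries.

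The sdc genes, whose products read the XOL-1 switch, had at most weak pooled summits. At sdc-1, the gene of a zinc finger protein, a single pooled summit lay 342 bp upstream with a signal of 20.7 (rank 2344). The overlapping peak ranked 7894 in replicate 1 and 1308 in replicate 2, where its signal was 13.7, and the 2 replicate summits were 310 bp apart. At sdc-2, whose product starts assembly of the complex on X in XX embryos, the single pooled summit lay 447 bp upstream with a signal of 13.4 (rank 9337 of 12024). Both replicates gave a signal of 7.8 there (ranks 15967 and 7177), with summits 35 and 39 bp from the pooled one. At sdc-3, the gene of a further zinc finger protein, no pooled summit was found. Its window held 2 summits of replicate 1 with a signal of 6.4 each (ranks 25392 and 25473) and 1 of replicate 2 with a signal of 6.3 (rank 12571). The lists of replicates 1 and 2 began at 5.8 and 4.0.

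Among the subunits of the complex, dpy-28 had the strongest peak by far. DPY-28 is a HEAT-repeat condensin subunit that also acts in meiosis. The peak at chrIII:10759134-10759329 had its summit 3891 bp upstream of the gene and a signal of 183.9, rank 6 of all thresholded peaks and rank 3 of the nuclear ones. The signal was 105.0 in replicate 1 (rank 7) and 80.3 in replicate 2 (rank 9), with summits 0 and 15 bp away. This summit lay 67 bp upstream of tasp-1, a homologue of the human protease taspase, which lies on the same strand between the peak and dpy-28. It fell in the promoter windows of tasp-1 and of K01G5.10. The remaining pooled summits of the dpy-28 window lay in exons of tasp-1 (signal 17.2) and K01G5.10 (signal 12.9), with a replicate 1 peak only.

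DPY-21 is a Jumonji-domain histone demethylase that acts on the X chromosomes. The dpy-21 thresholded peak, at chrV:17951298-17951653, had its summit 2283 bp upstream and a signal of 62.8 (rank 190). Replicate 1 gave a signal of 34.6 (rank 198) and replicate 2 gave 29.0 (rank 222), so that the rank was alike in both. Its nearest 5′ end was not that of dpy-21 but that of Y59A8B.24 on the opposite strand, 473 bp away. A weak pooled summit lay in the 5′ UTR of dpy-21, 153 bp downstream of the start, with a signal of 14.8, and replicate ranks of 16259 and 18278.

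**Figure D2:**
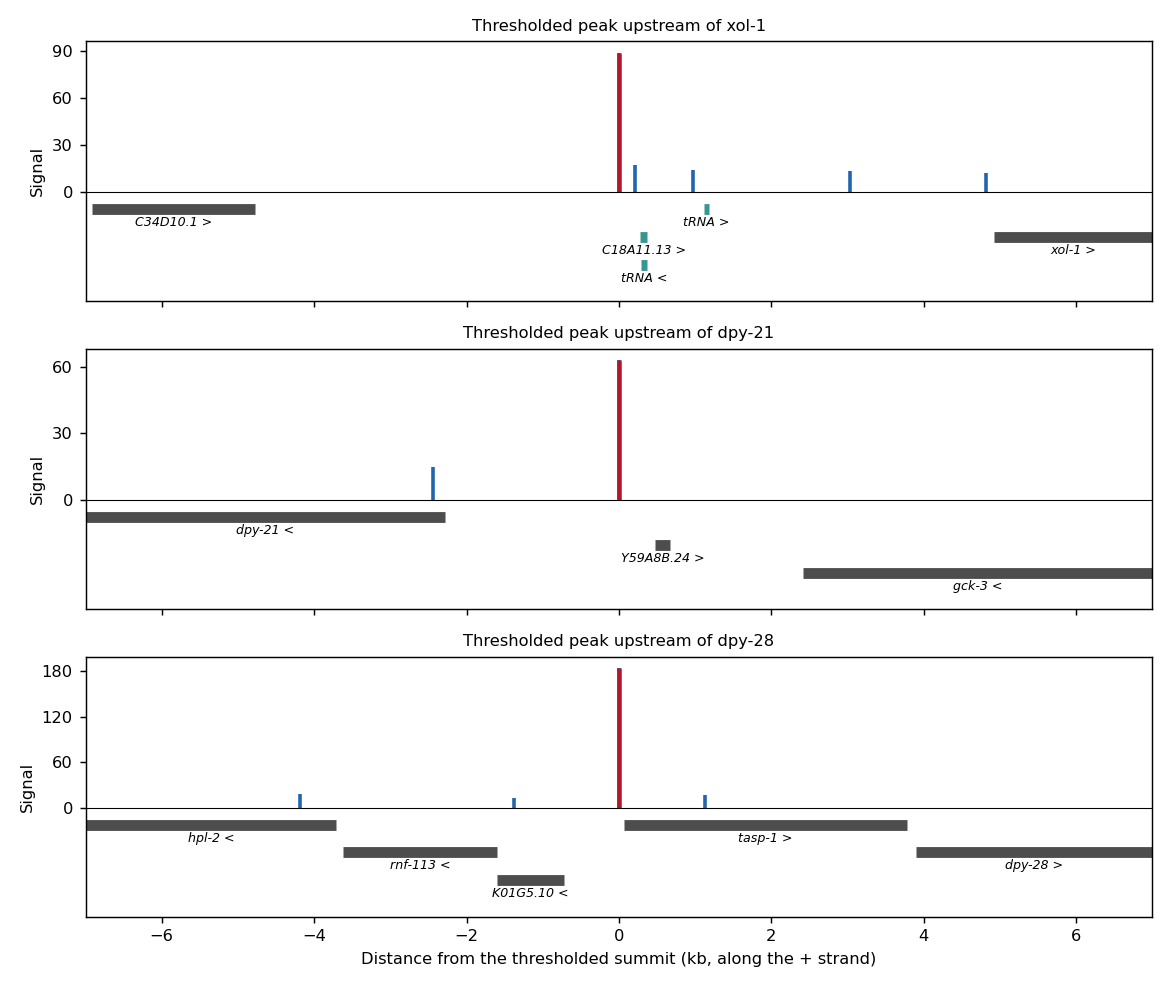
Signal of pooled summits (vertical lines, red where also thresholded) against distance in kb from the thresholded summit upstream of xol-1, dpy-21 and dpy-28, with coding genes in grey and non-coding genes in green below and their strand as an arrowhead. The peak near xol-1 stands in an intergenic stretch with weaker pooled summits and small non-coding genes to its right, while the peak near dpy-28 stands at the start of tasp-1 and the one near dpy-21 beside Y59A8B.24.

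DPY-27 is the SMC protein that distinguishes the complex from the other condensins. Its strongest pooled summit was the highest of the 7 genes without a thresholded one, with a signal of 27.5 (rank 1121), below the 33.9 at which the thresholded list ended. It lay 2390 bp upstream of dpy-27 and 334 bp upstream of amx-1, a gene of the amine oxidase family. The overlapping peak ranked 6236 in replicate 1, with a signal of 10.7, and 1874 in replicate 2. A second summit, 683 bp upstream of dpy-27 and 89 bp from the non-coding gene R13G10.5, had a signal of 19.0 and replicate ranks of 7678 and 3888. Summits in the coding exons, 5524 and 578 bp downstream of the start, had signals of 15.6 and 12.4. The nearest thresholded peak past the window lay 11540 bp beyond the 3′ end of dpy-27, near mtm-3, with a signal of 56.9.

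DPY-26, the kleisin subunit, had no upstream pooled summit. Its single pooled summit lay in the 3′ UTR, 5231 bp downstream of the start, with a signal of 12.8 (rank 10811), and it lay 220 bp upstream of C25G4.3. The replicate ranks were 20510 and 9831, and the replicate 2 summit was 322 bp away. For dpy-30, whose product is shared with the COMPASS histone methyltransferases, no pooled summit was found. Replicate 1 had 1 summit there, 119 bp downstream of the start with a signal of 9.5 (rank 9389), and replicate 2 had 3 with signals of 7.7, 4.8 and 4.4, of which the weakest overlapped the replicate 1 peak with its summit 238 bp away.

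At her-1, the gene of the secreted signal that promotes male fate, 3 pooled summits were found and none was thresholded. The strongest lay 4643 bp upstream, inside the non-coding gene ZK287.11 and 213 bp upstream of the zinc finger gene ztf-9. It had a signal of 19.0 in the pooled list (rank 3037), 14.6 in replicate 1 (rank 2018) and 8.2 in replicate 2 (rank 6058). A summit in a coding exon 204 bp downstream of the her-1 start had a signal of 17.2, and a replicate 1 peak only. The other, 3264 bp downstream in an intron, had a signal of 15.4 and lay 491 bp upstream of the start of a shorter her-1 transcript, with replicate ranks of 22311 and 7309.

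Some of the weak summits had no replicate 2 peak. All 20 pooled summits of the 10 genes overlapped a replicate 1 peak, 13 of them overlapped a replicate 2 peak as well, and at 10 both replicate summits lay within 100 bp of the pooled one. The lists of replicates 1 and 2 held 48 and 35 summits in these windows, of which 16 and 13 overlapped a peak of the other replicate. These overlaps were counted in the members' windows only and stand without a share over all peaks, so they describe these windows alone. Among the 721 strongest peaks of each replicate, 3 genes were found in replicate 1 (6.48% of all genes) and 3 in replicate 2 (6.20%). They were xol-1, dpy-21 and dpy-28 in both, where 3.65% of all genes had such a summit in both. Their 3 peaks ranked within the strongest 300 of each replicate, as did 175 of the 698 nuclear thresholded peaks (25.1%). Within the strongest 721 of each replicate were 366 of the 698 (52.4%), so a thresholded peak was not always strong in both replicates.

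**Figure D3:**
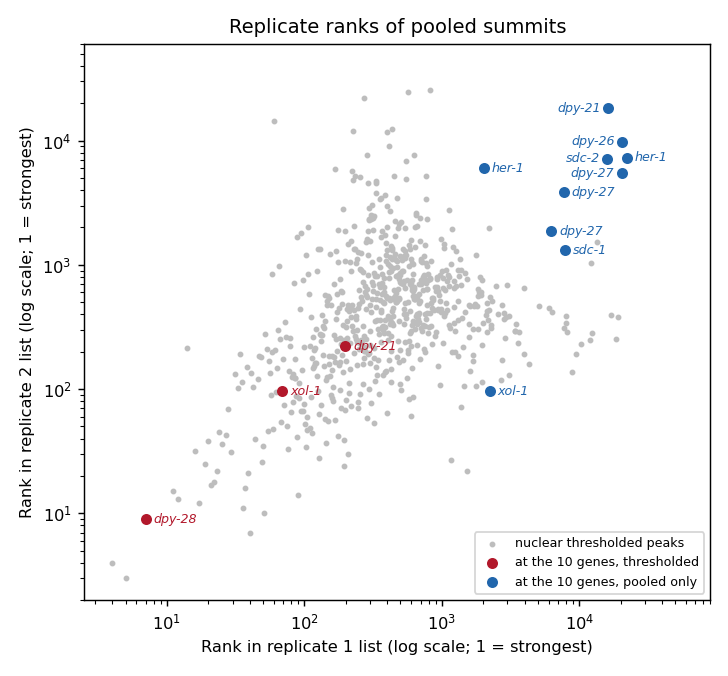
Rank in replicate 1 against rank in replicate 2 (log scales) for nuclear thresholded peaks (grey) and for the 13 pooled summits at the 10 genes that overlapped a peak in both lists (red, thresholded; blue, pooled only). The red points for dpy-28, xol-1 and dpy-21 lie at ranks 7 and 9, 69 and 96, and 198 and 222, and the blue xol-1 point shares the replicate 2 peak of the red one.

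By position, 14 of the 20 pooled summits lay upstream of the gene and 6 inside it. The annotation placed 11 in intergenic sequence, 5 in coding exons, 1 in an intron, 1 in a 5′ UTR, 1 in a 3′ UTR and 1 in a non-coding gene. For 12 of the 20 the member itself had the nearest 5′ end. Of the 20, 4 lay within 250 bp of a non-coding gene. No share over all pooled summits was taken for these positions, so the counts describe the 20 alone.

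The wider pathway was covered by 42 genes in 7 lists, also chosen with earlier results of these data known. Of the 42 genes, 9 had a thresholded summit in the gene window (21.4%) and 33 a pooled one, where the shares of all coding genes were 6.53% and 58.7%. The median window of these genes was 10686 bp long. Among the X signal elements, which repress xol-1, 1 of 3 genes had a thresholded summit. It was sex-1, the gene of a nuclear receptor, with a summit in an intron 907 bp downstream of the start and a signal of 38.1 (rank 2090 in replicate 1 and 392 in replicate 2). The strongest pooled summits of ceh-39 and fox-1 had signals of 29.7 and 19.2. Of the 2 autosomal signal elements, sea-2, an activator of xol-1, had a thresholded summit in an intron with a signal of 47.8 (replicate ranks 216 and 1045), and sea-1 had no pooled summit.

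The list of X chromatin genes had a thresholded summit at 3 of 3, against 6.53% of all genes, a count over very few genes. With 1000 bp upstream in place of 6000 bp only set-4 of the 3 had one, against 3.22% of all genes. It holds the gene set-1 of the methyltransferase that sets the histone H4 mark enriched on X in XX animals, the gene set-4 of the enzyme that converts this mark further, and cec-4, whose product tethers chromatin to the nuclear periphery. The set-4 summit lay 292 bp upstream of the gene, in its own promoter window, with a signal of 49.9 and replicate ranks of 260 and 547. The cec-4 summit lay 1626 bp upstream, 30 bp from the snoRNA gene F32E10.10, with a signal of 51.0 and replicate ranks of 492 and 206. The set-1 summit, 1510 bp upstream with a signal of 43.5, was nearer to jhdm-1, and its replicate ranks were 254 and 5072.

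Of 6 condensin partners, mix-1, the SMC subunit that the complex shares with the other condensins, had a thresholded summit of signal 47.0 in an intron 59 bp from the snoRNA gene M106.6. This summit lay 16012 bp downstream of the mix-1 start, and its nearest 5′ end was that of M106.8. The 5 others (capg-1, smc-4, kle-2, hcp-6 and capg-2) had no thresholded summit. Of 6 COMPASS partners of dpy-30, the methyltransferase gene set-16 had one 209 bp upstream with a signal of 84.4 (replicate ranks 111 and 87), in a promoter window shared with drr-2. The COMPASS gene ash-2 had one 121 bp downstream of its start with a signal of 36.6, shared with Y17G7B.20. No thresholded summit was found at set-2, wdr-5.1, rbbp-5 or cfp-1.

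Downstream of her-1, 1 of 14 genes had a thresholded summit (7.14%), close to the 6.53% of all genes. It was sup-26, the gene of an RNA-binding protein that represses tra-2, with a summit 1982 bp upstream and a signal of 72.7 (replicate ranks 117 and 154). The receptor gene tra-2 itself had a pooled summit with a signal of 33.5 (rank 736), just under the end of the thresholded list, 2883 bp upstream and nearer to eif-2Bgamma. That summit lay inside the snRNA gene sup-39, in an intron of C15F1.5. The others without a thresholded summit were tra-1, tra-3, tra-4, fem-1, fem-2, fem-3, fog-1, fog-2, fog-3, cul-2, laf-1 and gld-1. Among the 8 sexual fate effectors (mab-3, dmd-3, mab-23, dmd-4, egl-1, ceh-30, lin-39 and vit-2) 0 had a thresholded summit, and their pooled signals reached 19.7 at vit-2.

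**Figure D4:**
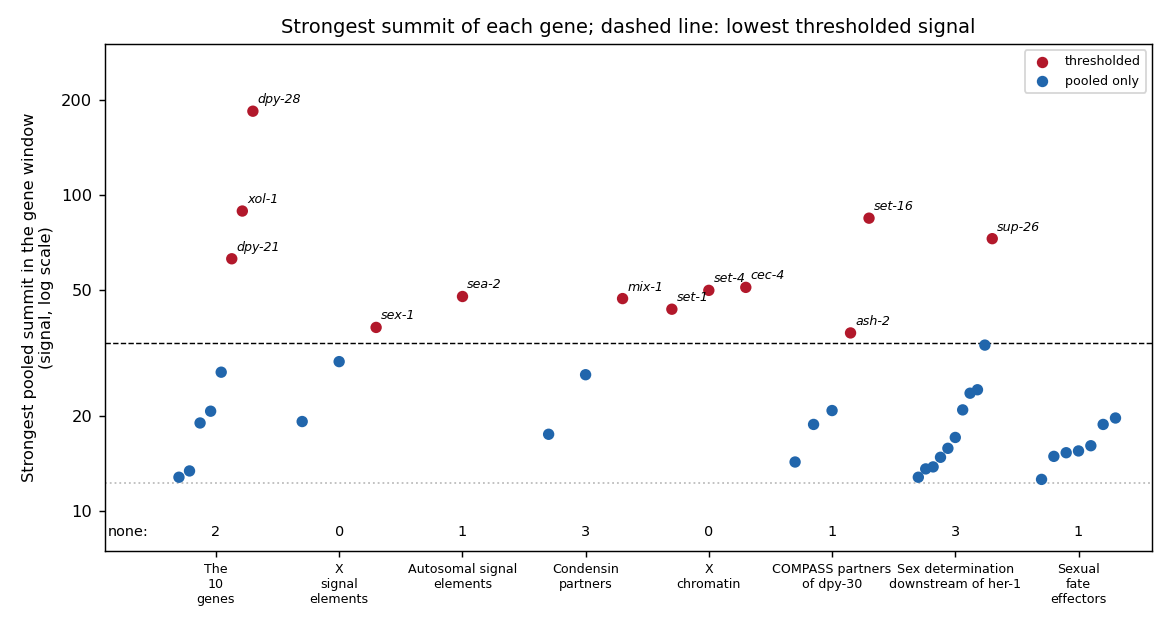
The strongest pooled summit of each gene (signal, log scale) for the 10 genes and the 7 pathway lists, red where thresholded and blue where not, with the number of genes without a pooled summit along the bottom. The dashed line is the lowest thresholded signal, 33.9, and the dotted line the lowest pooled signal, 12.3. The dpy-28 point at 183.9 and the xol-1 point at 88.9 are the highest of all those drawn.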

How the data were processed

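ChIP-seq peak lists of 2 biological replicates were used as deposited, in 1 group. Relaxed peaks were called on the aligned reads of 1 replicate or of both pooled, each against a control, and filtered by the irreproducible discovery rate into the thresholded list, per the listing the authors deposited. The signal of a peak and its −log10 q-value (at most 2.43 in the pooled list, used in no test) are deposited values of the authors' caller. The sources used here do not give the aligner, caller, versions or cutoff. Read depth is unknown, so no counting interval is given, and signal is compared only within a list.

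All 721 thresholded peaks were the strongest of the pooled list, and 23 mitochondrial ones were left out of gene counts. Summits were placed on the WBcel235 annotation (Ensembl release 115) with Python 3.11.15 and pandas 2.3.3, with 1-based ce11 coordinates. The ce10 lists were not used. Sequences are RefSeq's, from the WBcel235 genome, in windows of 200 bp centred on the summit. The window at her-1 is not reported here. Motifs were searched on both strands, and overlapping matches were counted. With 1 group and 2 replicates no test was made, and counts stand beside those over all 19973 genes. The placement of summits was tested on simulated data.

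The members, pathway lists and motifs were chosen with earlier results of these data known. Named genes were the 10 members, every pathway list gene with a thresholded summit (the others by name and count), and, for each thresholded summit and the strongest pooled summit of each member, the neighbouring genes. Neighbours of other pooled summits, mtm-3 and the strongest pooled values of ceh-39, fox-1, tra-2 and vit-2 were added after their values were seen. Alternatives were shorter reach, upstream part only, any overlap, nearest 5′ end only, a signal at or above the median, other promoter windows, other numbers of strongest peaks, other overlap rules and each replicate alone.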

Additional observations from a re-analysis of the deposited data

How the results depend on the processing

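The count of 3 genes with a thresholded summit fell to 1 with 3000 bp upstream in place of 6000 bp (dpy-21, with 4.63% of all genes) and to 0 with 1000 bp (3.22%). With each summit given only to the coding gene with the nearest 5′ end it was 1 (xol-1, with 2.84% of all genes). The pathway lists' 9 genes became 5 without the gene body, with 5.66% of all genes (ash-2, mix-1, sea-2 and sex-1 were lost). By nearest 5′ end they also became 5, with 2.84% of all genes (ash-2, mix-1, set-1 and set-16 were lost). Among the strongest 3000 peaks of replicate 2 alone, 5 members had a summit in place of 3, and the share of all genes was not counted there. The other 32 values for these counts stayed within 1.5 times their main value. With each replicate alone, the strongest peaks of its own list stood in for the thresholded and pooled peaks. In place of a thresholded summit, 3 members had one in replicate 1 and 3 in replicate 2, which repeats the counts among the strongest 721. In place of a pooled summit, 8 members had one in replicate 1 (60.4% of all genes) and 9 in replicate 2 (60.1%). The 8 had lost sdc-2 and gained dpy-30, and the 9 had gained dpy-30. At the promoter, 0 members had a summit in place of a thresholded one in either replicate. The pathway count was 10 in replicate 1 and 6 in replicate 2. No paired analysis was possible because there is 1 group. The signal's scale and the read depth are unknown, so a gene without a summit is one where none was listed, not one shown to be unbound.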

Other observations

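The copies on X of the 12-base word shared by both CGCAGGG matches at xol-1 included some of the strongest ZTF-11 peaks of the genome. The 6 thresholded peaks other than that of xol-1 which held a copy had signals of 159.0, 150.7, 125.4, 122.5, 91.7 and 69.3, with ranks 10, 11, 26, 30, 65 and 148 in the thresholded list. The 5′ ends of coding genes nearest to these copies were those of F20B6.9, W02H3.3, nspc-17, cest-16, Y41G9A.17 and F22H10.2, from 723 to 4057 bp from the copy. These copies lay 4 to 105 bp from the summits of these 6 peaks. The copy near W02H3.3 lay in no replicate 2 peak, although the thresholded peak around it overlapped one of rank 15. One of the 2 remaining copies on X lay in a pooled peak of rank 3234 near col-185, with ranks of 2463 and 2620 in replicates 1 and 2. The other lay near the Y41G9A.17 peak, in a replicate 2 peak of rank 1536. The single copy on V lay in no thresholded peak. The word was picked from the xol-1 window after its values were seen, and neither binding of the dosage compensation complex nor the control's coverage was measured in the lists used here.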
